A study of Mustela putorius furo with 2 samples.

Results

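The genes described here are 8 parts of the signalling route that runs from the leukaemia inhibitory factor (LIF) receptor to STAT3. They are the receptor genes LIFR, IL6ST, CNTFR and OSMR, the kinase genes JAK1 and JAK2, the transcription factor gene STAT3 and the feedback inhibitor gene SOCS3. The members were taken by name, with no measured value in the rule, from the 21317 gene names that held at least 1 UMI (unique molecular identifier, the tag that counts 1 captured RNA molecule). Earlier results of these data were known when the members were chosen. All 8 were detected, with between 213 UMIs (OSMR) and 2564 UMIs (JAK1) of the 60743615 UMIs over all genes.

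The RNA came from dorsal cortex of wild-type (WT) ferret pups at postnatal day 3, dissociated with papain and run on a 10x Genomics droplet platform as 2 replicates of a single group. There was no second genotype, treatment or age, so each comparison below sets 1 cell class against another within the same libraries. The 2 libraries are called A (9782 cells, median 3602.5 UMIs per cell) and B (5005 cells, median 3068 UMIs). The labels do not say whether they came from separate animals. With the library as a block, the p-values measure how far a class difference varied between these 2 samples, together with spread shared across genes. That variation may be technical. Only 21 barcode sequences occurred in both libraries.

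Cytokines of the LIF family signal through receptor chains that share gp130, the product of IL6ST. LIFR pairs with gp130 to bind LIF, CNTFR is the anchored chain that adds ciliary neurotrophic factor to that pair, and OSMR pairs with gp130 for oncostatin M. JAK1 and JAK2 are kinases bound to the chains and phosphorylate STAT3, which then enters the nucleus and turns on genes that include SOCS3, whose product blocks the receptor complex. In rodent cortex this route is known for its part in the switch of neural progenitors from making neurons to making astrocytes.

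Cells were assigned to classes by gates on marker UMIs, and no member was used in any gate. Of 14773 kept cells, 10131 fell into 1 of 19 classes, 613 met the gates of 2 or more lineages and were left out, and 4029 (27.3%) met none. In 16 classes each library held at least 20 cells, and these carry the results; CRYAB glia, ependymal cells and erythroid cells were smaller. Glial classes are called by their gate genes. A glial cell that met several of these gates took the first in a fixed order. It ran from oligodendrocyte precursors through gliogenic progenitors, CITED1-BBOX1, CRYAB and dividing HOPX glia to HOPX-CLU glia. HOPX-CLU glia are thus the cells left by the earlier gates. HOPX-CLU glia (229 and 112 cells in libraries A and B) and dividing HOPX glia (243 and 119) carry radial glia genes, gliogenic progenitors (259 and 105) carry EGFR and OLIG1, and CITED1-BBOX1 glia (175 and 87) carry CITED1 or BBOX1 beside CLU, APOE or AQP4.

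Some classes carried RNA of others or differed in depth. Mural or fibroblast cells held the summed radial glia list at 20930 and 20300 CPM, against 42960 and 46460 CPM in HOPX-CLU glia, so their label may describe a mixture. CPM is the usual depth-scaled unit, a gene's UMIs relative to all UMIs of the class, given for library A and then B. The list sum leans on FABP7, which held 733423 UMIs in 14579 cells, against 28248 UMIs of PTPRZ1. In excitatory neurons the same sum was 9426 and 10420 CPM. Endothelial cells held the mural and fibroblast markers at 852 and 697 CPM, against 1972 and 2396 CPM in mural or fibroblast cells. The mural gate asks for no CLDN5 UMI, so cells with both kinds of marker stayed in the endothelial class. The part of mural RNA in the endothelial levels was not tested. HOPX-CLU glia held the 8 endothelial markers at 18.4 and 19.6 CPM in sum, with KDR, PECAM1, CDH5 and TIE1 at 0. Endothelial cells were 1.18% of library A and 6.95% of library B, the widest gap in share among the 16 classes, and they were shallow, with a median of 2318 and 2013 UMIs per cell and 2.89% and 4.15% mitochondrial UMIs, against 5281 and 4369.5 UMIs and 0.688% and 0.949% in HOPX-CLU glia. Shares of cells with a UMI are therefore given also after each cell was thinned to 1500 UMIs.

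LIFR, the chain that binds LIF itself, stood high in gliogenic progenitors, CITED1-BBOX1 glia and endothelial cells and low in neurons. Its level was 124 CPM in library A and 98.2 CPM in library B in gliogenic progenitors. CITED1-BBOX1 glia held 61.5 and 111 CPM, endothelial cells 64.1 and 63.9 CPM, and oligodendrocyte precursors 40.7 and 72.8 CPM. These 4 classes overlapped from each to the next, and the lowest of their 8 values lay above the highest in the other 12 classes, which was 31.2 CPM in mural or fibroblast cells. HOPX-CLU glia had 29.6 and 11.8 CPM, dividing HOPX glia 13.4 and 23.5 CPM, and medial-type interneurons 25.9 and 20.4 CPM. EOMES progenitors held 5.78 and 5.72 CPM and excitatory neurons 6.66 and 4.47 CPM.

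**Figure D1:**
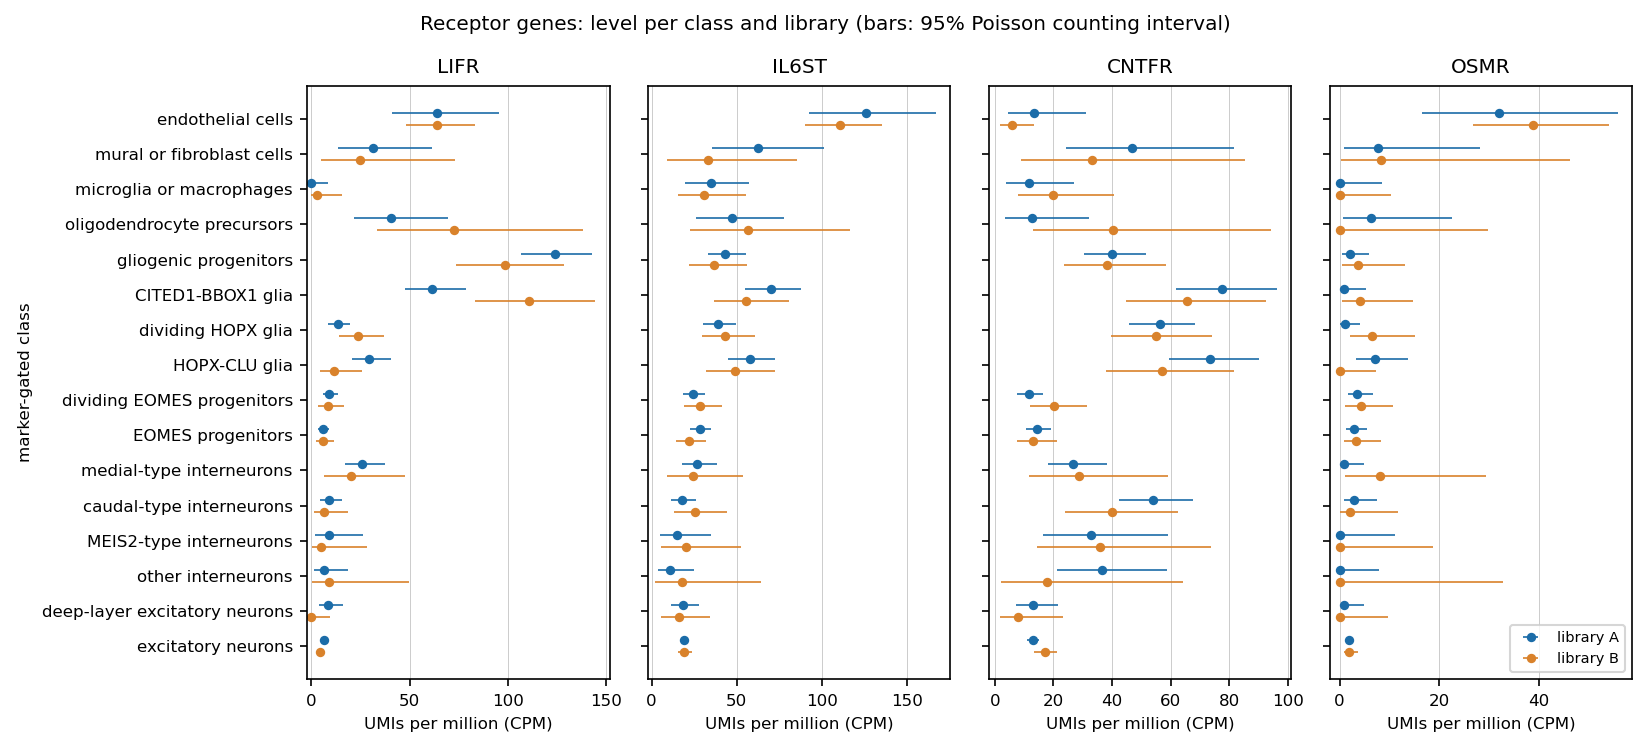
Levels of the receptor genes LIFR, IL6ST, CNTFR and OSMR in CPM for each of 16 marker-gated classes, with library A above library B and bars for the 95% Poisson counting interval. LIFR reaches 124 and 98.2 CPM in gliogenic progenitors, whereas OSMR passes 30 CPM only in endothelial cells, at 32.1 and 38.8 CPM.

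Gliogenic progenitors made up few of the cells but held 20.8% of all LIFR UMIs in kept cells. A LIFR UMI was seen in 33.98% of gliogenic progenitors of library A (exact 95% binomial interval 28.2 to 40.1) and in 26.7% of those of library B (18.5 to 36.2). In microglia or macrophages the shares were 0 of 127 cells (up to 2.86%) and 0.794% (0.0201 to 4.34), at median depths of 2247 and 1961.5 UMIs against 5153 and 4513 UMIs in gliogenic progenitors. After thinning, 10.4% and 10.5% of gliogenic progenitors still carried a LIFR UMI, so the gap to microglia remained at equal depth. Intervals of this kind cover counting error only.

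LIFR was higher in gliogenic progenitors than in HOPX-CLU glia by a log2 fold change of 2.24 (SE 0.22, edgeR's adjusted p = 1.42e-14, n = 2 libraries). Here and below this is the quasi-likelihood test of edgeR, adjusted after Benjamini and Hochberg over all genes tested in that comparison. Taken singly, with a prior count of 2 and no test, library A gave 1.98 and library B gave 2.70. The call held in all 11 alternative settings. LIFR was also higher in HOPX-CLU glia than in EOMES progenitors, by 2.02 (SE 0.40, adjusted p = 0.000145). There the libraries differed, at 2.10 in A and 0.73 in B, and DESeq2 did not call it (adjusted p = 0.137). Interneurons exceeded excitatory neurons at far lower levels, with means of 12.04 and 5.49 CPM over the libraries (log2 1.0095, SE 0.28, edgeR's adjusted p = 0.0187). That call was lost with DESeq2 (adjusted p = 0.435) and after thinning (0.0916). Medial-type interneurons held 34 of the 57 interneuron UMIs of LIFR, and the caudal-type, MEIS2-type and other interneurons had means of 7.58, 7.04 and 7.67 CPM.

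Endothelial cells exceeded HOPX-CLU glia in LIFR by 1.57 on the log2 scale (SE 0.32, edgeR's adjusted p = 0.000133), at 0.96 in library A and 2.25 in library B. Oligodendrocyte precursors were not called against HOPX-CLU glia at 1.005 (SE 0.46, interval 0.11 to 1.90, edgeR's adjusted p = 0.0842), with 0.28 in A and 1.91 in B. Dividing HOPX glia against non-dividing ones gave -0.52 (SE 0.36, edgeR's adjusted p = 0.307), and the libraries had opposite signs, at -1.06 and 0.84. HOPX-CLU glia enter 6 of the 7 comparisons, and their LIFR level in library B rests on 6 UMIs in 112 cells. Cells that met the CITED1-BBOX1 gate, which was proposed with LIFR known, were taken out of HOPX-CLU glia. The LIFR comparisons with HOPX-CLU glia are therefore not free of that choice, and its part in them was not tested.

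The CITED1-BBOX1 class was proposed with LIFR already known to stand high among such glia, so its LIFR level is a description and carries no test. It held 10.3% of the LIFR UMIs, with a LIFR UMI in 24.6% and 31.0% of cells (9.14% and 12.6% after thinning). The log2 difference from HOPX-CLU glia was 1.64, at 0.98 in library A and 2.84 in library B. The counts behind it were 65 UMIs in 43 cells of library A and 54 UMIs in 27 cells of library B.

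IL6ST, which encodes the shared chain gp130, was detected in every class and was highest in endothelial cells, at 126 CPM in library A and 111 CPM in library B. The lower of these values lay above all values in the 15 other classes. CITED1-BBOX1 glia had 70.0 and 55.3 CPM, HOPX-CLU glia 57.5 and 49.0 CPM, oligodendrocyte precursors 47.0 and 56.6 CPM, and gliogenic progenitors 43.3 and 36.4 CPM, and most neighbours in this order overlapped. Excitatory neurons had 19.0 and 19.2 CPM, and the lowest mean was in interneurons of no further type, at 10.8 and 17.8 CPM.

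IL6ST was higher in endothelial cells than in HOPX-CLU glia by 1.16 (log2, SE 0.21, edgeR's adjusted p = 3.09e-05) and in HOPX-CLU glia than in EOMES progenitors by 1.04 (SE 0.21, edgeR's adjusted p = 0.000136). The second call was lost with DESeq2 (adjusted p = 0.101). Gliogenic progenitors differed from HOPX-CLU glia in IL6ST by -0.44 (SE 0.23, interval -0.90 to 0.02, edgeR's adjusted p = 0.141), which was not called. In gliogenic progenitors LIFR was thus higher, whereas IL6ST had no called change. Interneurons and excitatory neurons differed in IL6ST by 0.03 (SE 0.19, interval -0.35 to 0.42, edgeR's adjusted p = 0.963).

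CNTFR, the ciliary neurotrophic factor chain, was highest in the 3 glial classes with radial glia genes. It stood at 77.6 and 65.6 CPM in CITED1-BBOX1 glia, 73.5 and 56.8 CPM in HOPX-CLU glia, and 56.3 and 54.9 CPM in dividing HOPX glia. Gliogenic progenitors held 39.9 and 38.2 CPM, below all 6 of those values. Endothelial cells had the lowest mean, 13.4 and 5.71 CPM, so the order of classes was not that of LIFR or IL6ST.

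HOPX-CLU glia exceeded EOMES progenitors in CNTFR by 2.26 (log2, SE 0.22, edgeR's adjusted p = 3.07e-09), with 2.19 in library A and 1.86 in library B, and DESeq2 called it as well (adjusted p = 6.79e-05). CNTFR was lower in gliogenic progenitors than in HOPX-CLU glia by -0.82 (SE 0.22, edgeR's adjusted p = 0.00208), a call lost with DESeq2 (adjusted p = 0.566) and after thinning (0.241). It was lower in endothelial cells by -2.87 (SE 0.40, edgeR's adjusted p = 3.42e-07). In oligodendrocyte precursors it was lower by -1.80 (SE 0.47, edgeR's adjusted p = 0.0007), but by -2.48 in library A and -0.66 in library B, and DESeq2 did not call it (adjusted p = 0.459).

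Among neurons, CNTFR was higher in interneurons. Caudal-type interneurons carried 53.8 and 39.95 CPM, MEIS2-type interneurons 33.0 and 35.7 CPM and medial-type interneurons 26.8 and 28.6 CPM. Excitatory neurons carried 12.9 and 17.02 CPM, below each of these. All interneurons together exceeded all excitatory neurons by 1.34 (log2, SE 0.19, edgeR's adjusted p = 0.000238), at 1.48 in library A and 0.88 in library B. Microglia or macrophages held a CNTFR UMI in 3.94% and 5.56% of cells, on 5 and 7 UMIs, against 4.51% and 5.09% in all excitatory neurons, deep-layer ones included. After thinning, the shares were 2.36% and 4.76% in microglia or macrophages and 1.87% and 2.45% in all excitatory neurons. Endothelial cells, the class with the lowest mean, held a CNTFR UMI in 4 of 115 and 5 of 347 cells before thinning. Whether shares this low are background was not tested.

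OSMR, the oncostatin M chain, was highest in endothelial cells and near the counting limit in most other classes. Endothelial cells held 32.1 CPM in library A and 38.8 CPM in library B (12 and 34 UMIs) and 21.6% of all OSMR UMIs. The other 15 classes lay at 0 to 8.32 CPM, with no UMI in 127 and 126 microglia or macrophages, where a count of 0, read as fewer than 3 counts, allows up to 6.95 and 8.44 CPM. An OSMR UMI occurred in 10.4% and 8.36% of endothelial cells (5.22% and 5.48% after thinning). Endothelial cells exceeded HOPX-CLU glia by 2.88 (log2, SE 0.53, edgeR's adjusted p = 3.5e-05), at 1.75 in library A and 3.88 in library B. The 9 OSMR UMIs of HOPX-CLU glia lay in 3 cells of library A, 7 of them in 1 cell, and library B had none. OSMR did not pass the filter on low counts in the other 6 comparisons.

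JAK1, a kinase used by many cytokine receptors, was spread over all classes. It was highest in endothelial cells, at 102 and 89.0 CPM, and in microglia or macrophages, at 92.6 and 73.1 CPM, and these overlapped. CITED1-BBOX1 glia had 74.8 and 63.5 CPM and deep-layer excitatory neurons 51.1 and 47.5 CPM. In HOPX-CLU glia the libraries stood apart, at 66.3 CPM in A and 31.4 CPM in B, and every JAK1 comparison with that class inherits the gap.

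JAK1 was higher in HOPX-CLU glia than in EOMES progenitors by 0.86 (log2, SE 0.21, edgeR's adjusted p = 0.00148), but by 0.97 in library A and 0.11 in library B. It was lower in gliogenic progenitors than in HOPX-CLU glia by -0.76 (SE 0.26, edgeR's adjusted p = 0.0141), although library B alone had the opposite sign, at 0.30 against -1.14 in library A. Dividing HOPX glia were lower than non-dividing ones by -0.71 (SE 0.23, edgeR's adjusted p = 0.0105), with -0.90 in library A and 0.05 in library B. Each of these 3 differences rests on library A. Endothelial cells were higher than HOPX-CLU glia by 0.96 (SE 0.24, edgeR's adjusted p = 0.00119), at 0.49 in A and 1.49 in B. None of these 4 calls held with DESeq2 (adjusted p = 0.392, 0.911, 1 and 0.093). After thinning the gliogenic, dividing and endothelial calls were lost too (edgeR's adjusted p = 0.0721, 0.392 and 0.341).

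Neuron types also differed in JAK1, and both libraries had the same sign, as they had for endothelial cells. Interneurons were lower than excitatory neurons by -0.80 (log2, SE 0.18, edgeR's adjusted p = 0.00518), with -1.01 in library A and -0.53 in library B. DESeq2 did not call it (adjusted p = 0.21).

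JAK2, which serves many of the same receptors, was called in 1 of the 7 comparisons. Its highest level was in microglia or macrophages, at 104 and 81.5 CPM, above every other class in both libraries. Endothelial cells had 58.8 and 52.5 CPM and EOMES progenitors, the lowest class, 25.4 and 22.9 CPM. That call was a higher level in HOPX-CLU glia than in EOMES progenitors, by 0.75 (log2, SE 0.23, edgeR's adjusted p = 0.00751). It was lost with DESeq2 (adjusted p = 0.386), after thinning (0.645) and with stricter gates (0.143). Endothelial cells against HOPX-CLU glia gave 0.47 (SE 0.28, interval -0.08 to 1.02, edgeR's adjusted p = 0.178), but 1.24 after thinning, which was called (edgeR's adjusted p = 0.031).

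STAT3, the transcription factor at the end of the route, was highest in endothelial cells, at 110 CPM in library A and 77.6 CPM in library B. Mural or fibroblast cells held 50.7 and 74.9 CPM, CITED1-BBOX1 glia 59.6 and 55.3 CPM, microglia or macrophages 50.9 and 33.7 CPM, and HOPX-CLU glia 48.7 and 31.4 CPM. Gliogenic progenitors held less, 25.95 and 23.7 CPM, and dividing EOMES progenitors 9.95 and 9.49 CPM. Excitatory neurons, at 3.82 and 3.62 CPM, were the lowest of the 16 classes.

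A STAT3 UMI was present in 25.2% and 15.0% of endothelial cells (15.7% and 7.78% after thinning) and in 1.33% and 1.20% of excitatory neurons (0.663% and 0.281%), the class with the lowest share. Endothelial cells exceeded HOPX-CLU glia by 1.23 (log2, SE 0.24, edgeR's adjusted p = 8.17e-05), at 1.03 in library A and 1.30 in library B, and DESeq2 also called it. HOPX-CLU glia exceeded EOMES progenitors by 0.98 (SE 0.23, edgeR's adjusted p = 0.000954), a call lost with DESeq2 (adjusted p = 0.243) and after thinning (0.0969). Gliogenic progenitors were lower than HOPX-CLU glia by -0.80 (SE 0.29, edgeR's adjusted p = 0.0218), lost with DESeq2 (0.801). Gliogenic progenitors thus had LIFR above and STAT3 below the level in HOPX-CLU glia in each library.

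Dividing HOPX glia held 22.3 and 14.4 CPM of STAT3, against 48.7 and 31.4 CPM in the non-dividing HOPX-CLU glia. The log2 difference was -1.15 (SE 0.29, edgeR's adjusted p = 0.000675), with -1.07 in library A and -0.98 in library B, although DESeq2 did not call it (adjusted p = 0.593). Among EOMES progenitors the dividing cells were also the lower ones, at 9.95 and 9.49 CPM against 23.7 and 17.2 CPM in non-dividing cells, a pair with no test here. The dividing HOPX gate asks for PTPRZ1 and the non-dividing one for CLU, so the gates differ in more than mitotic genes.

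STAT3 had the largest log2 difference between neuron types of the 7 members tested there. All interneurons averaged 21.4 CPM and all excitatory neurons 3.999 CPM over the 2 libraries. The log2 difference was 2.31 (SE 0.26, edgeR's adjusted p = 3.22e-05), with 2.20 in library A and 2.12 in library B, and it was called in all 11 alternatives that gave a test. Medial-type, caudal-type and MEIS2-type interneurons lay between 11.98 and 25.5 CPM, each above the 10.6 CPM that was the highest excitatory value.

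**Figure D2:**
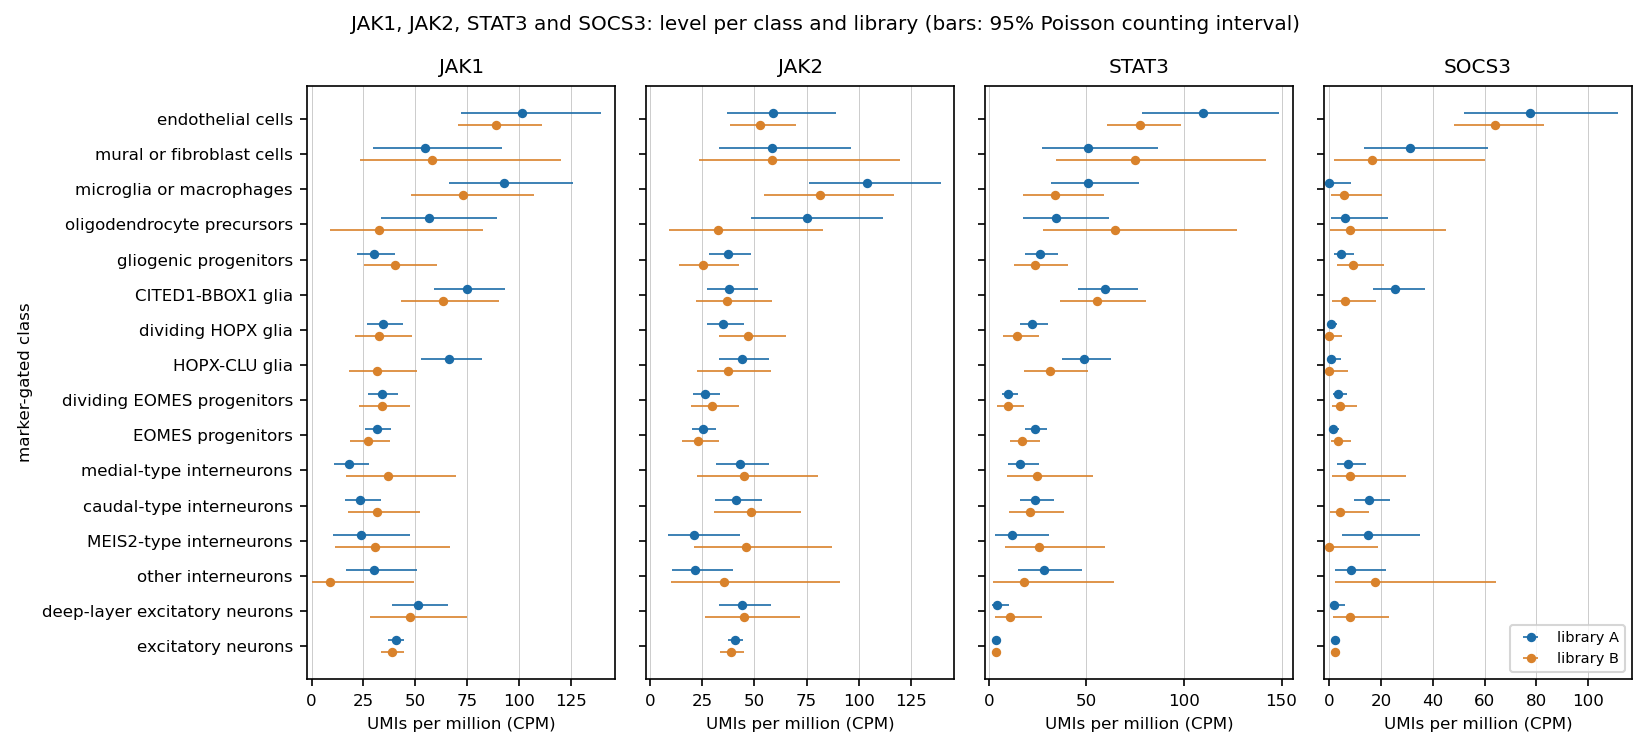
Levels of JAK1, JAK2, STAT3 and SOCS3 in CPM in the same 16 classes, with library A above library B and bars for the 95% Poisson counting interval. Endothelial cells lead for STAT3 (110 and 77.6 CPM) and SOCS3 (77.5 and 63.9 CPM), and microglia or macrophages lead for JAK2 (104 and 81.5 CPM).

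SOCS3, a STAT3 target that feeds back on the receptor, was highest in endothelial cells, whose 2 values lay above all values in the other 15 classes. Endothelial cells held 77.5 CPM in library A and 63.9 CPM in library B (29 and 56 UMIs), 24.3% of all SOCS3 UMIs. HOPX-CLU glia held 0.799 CPM and 0 CPM, which is 1 UMI in 341 cells. The ratio of the CPM values pooled over both libraries was 120 with an exact counting interval of 20.9 to 4786, and the difference was called with edgeR's quasi-likelihood test (adjusted p = 7.16e-11). A SOCS3 UMI occurred in 13.9% and 13.8% of endothelial cells (10.4% and 9.80% after thinning) and in 0.437% and 0% of HOPX-CLU glia.

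In CITED1-BBOX1 glia SOCS3 differed between the libraries, at 25.6 CPM in A and 6.15 CPM in B. The 27 UMIs of library A came from 10 cells, 10 of them from 1 cell, and the 3 UMIs of library B from 3 cells. Over both libraries 30 UMIs stood against 1 UMI in HOPX-CLU glia, a ratio of 34.2 (exact counting interval 5.69 to 1396), and the gene did not pass the filter on low counts there. Without that filter SOCS3 was called (edgeR's adjusted p = 8.8e-06), as it was in 1 fit over 12 classes (0.00412). Gliogenic progenitors held 4.66 and 9.10 CPM, or 12 UMIs, a ratio of 10.3 to HOPX-CLU glia (1.52 to 440). There too the gene was below the filter. Without the filter it was not called (edgeR's adjusted p = 0.141), and the fit over 12 classes called it narrowly (0.0469). Dividing HOPX glia were as low as HOPX-CLU glia, with 1 UMI in 362 cells.

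Interneurons had more SOCS3 than excitatory neurons, by 1.92 on the log2 scale (SE 0.42, edgeR's adjusted p = 0.00458). The libraries gave 2.16 in A and 0.79 in B, and DESeq2 did not call the difference (adjusted p = 0.17). Caudal-type interneurons carried 15.5 and 4.21 CPM and medial-type interneurons 7.15 and 8.17 CPM. Excitatory neurons carried 2.22 and 2.34 CPM, with a UMI in 0.758% and 0.703% of cells, against 0.437% and 0% in HOPX-CLU glia and 0.412% and 0% in dividing HOPX glia.

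SOCS3 is also an early response gene, and the 13 measured immediate early and dissociation genes were summed beside it. Their sum was 1726 and 1891 CPM in endothelial cells, 3272 and 3103 CPM in CITED1-BBOX1 glia, 2302 and 2281 CPM in HOPX-CLU glia, and 5952 and 4507 CPM in microglia or macrophages. EOMES progenitors had 421 and 473 CPM and excitatory neurons 360 and 380 CPM. Microglia and HOPX-CLU glia combined high early gene sums with SOCS3 at 0 to 5.62 CPM. The sum leans on FOS and JUN, which held 21354 and 12426 UMIs in the whole data set. Singly, 5 of 11 tested early genes were higher in endothelial cells than in HOPX-CLU glia: IER3, JUNB, ZFP36, DUSP1 and IER2. FOS, JUN and EGR1 were the 3 lower ones. Of all genes tested in that comparison 24.9% were called higher and 21.7% lower. The part of tissue dissociation in the SOCS3 levels was not tested.

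**Figure D3:**
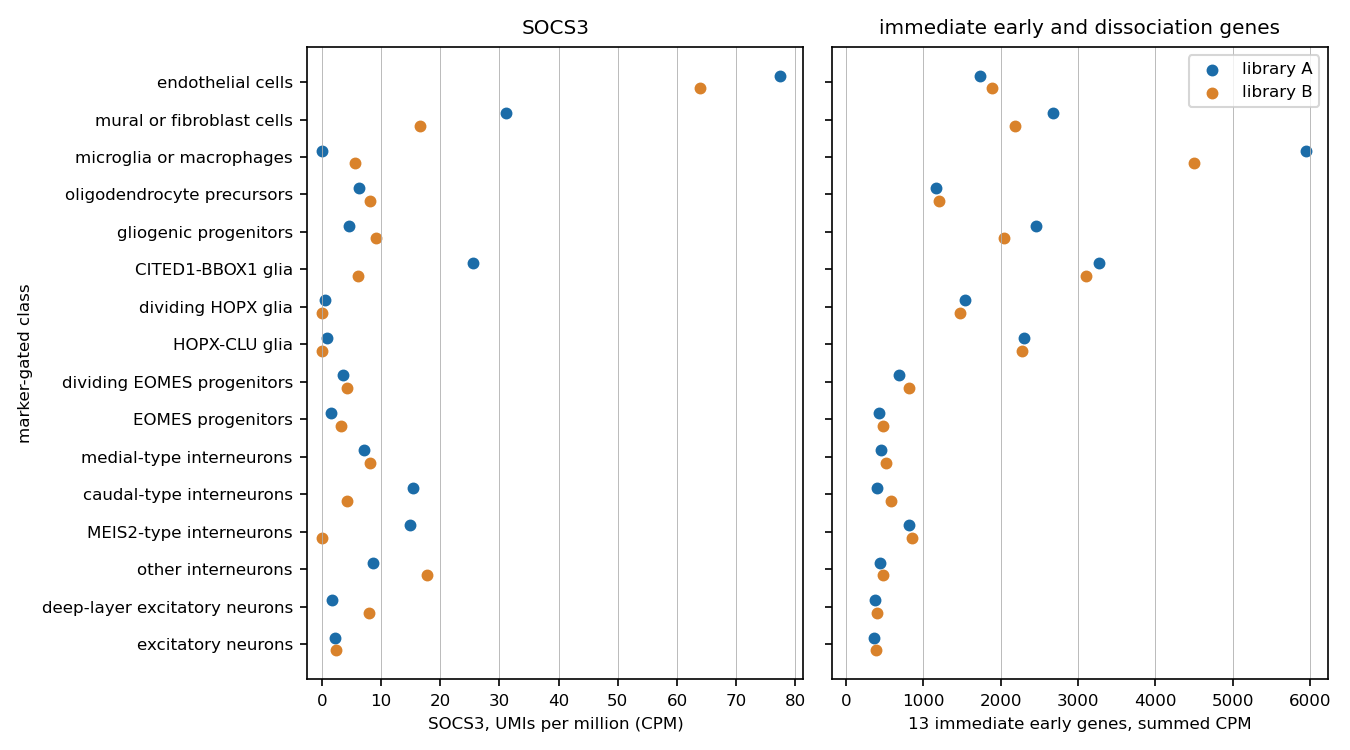
SOCS3 level (left, CPM) and summed level of 13 immediate early and dissociation genes (right, CPM) in 16 classes, with 1 point per library. Endothelial cells have the highest SOCS3 at 77.5 and 63.9 CPM with an early gene sum of 1726 and 1891 CPM, below that of HOPX-CLU glia (2302 and 2281 CPM), where SOCS3 is 0.799 and 0 CPM. Single early genes differed in both directions between these classes.

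The member calls were read against the share of all tested genes called. In HOPX-CLU glia over EOMES progenitors, 49.6% of 10249 genes were called, 25.6% higher and 24.0% lower, and 6 members were higher; OSMR and SOCS3 were below the filter. Endothelial cells over HOPX-CLU glia had 46.6% of 9197 genes called, 24.9% higher and 21.7% lower, with 6 members higher and CNTFR lower. Interneurons over excitatory neurons had 26.7% of 12739 genes called, with LIFR, CNTFR, STAT3 and SOCS3 among the 13.7% higher and JAK1 among the 12.9% lower. At such background shares a call by itself is common among tested genes.

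Gliogenic progenitors over HOPX-CLU glia had 35.7% of 9613 genes called, with LIFR among the 17.6% higher and CNTFR, JAK1 and STAT3 among the 18.1% lower. By log2 fold change LIFR stood at position 283 from the top of that comparison. Oligodendrocyte precursors had 28.8% of 7279 genes called and CNTFR as the single member, among the 15.1% lower. Dividing over non-dividing HOPX glia had 27.3% of 9861 genes called, with STAT3 and JAK1 among the 13.1% lower.

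CITED1-BBOX1 glia over HOPX-CLU glia was the closest pair, with 1.76% of 8897 genes called, 1.29% higher. Besides LIFR, 5 members were tested and 0 were called by edgeR's quasi-likelihood test, with adjusted p from 0.563 for STAT3 to 0.946 for CNTFR. Of the 5, 0 had an unadjusted p under 0.05, and DESeq2, which called 9 genes in all, gave no adjusted p for any of them. The intervals of the log2 difference were -0.06 to 0.88 for STAT3, -0.07 to 0.76 for JAK1, -0.20 to 0.66 for IL6ST, -0.30 to 0.48 for CNTFR and -0.71 to 0.36 for JAK2. Differences up to those bounds lay within the error of the comparison. The comparisons with HOPX-CLU glia share that class's cells, so they are not independent of each other.

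**Figure D4:**
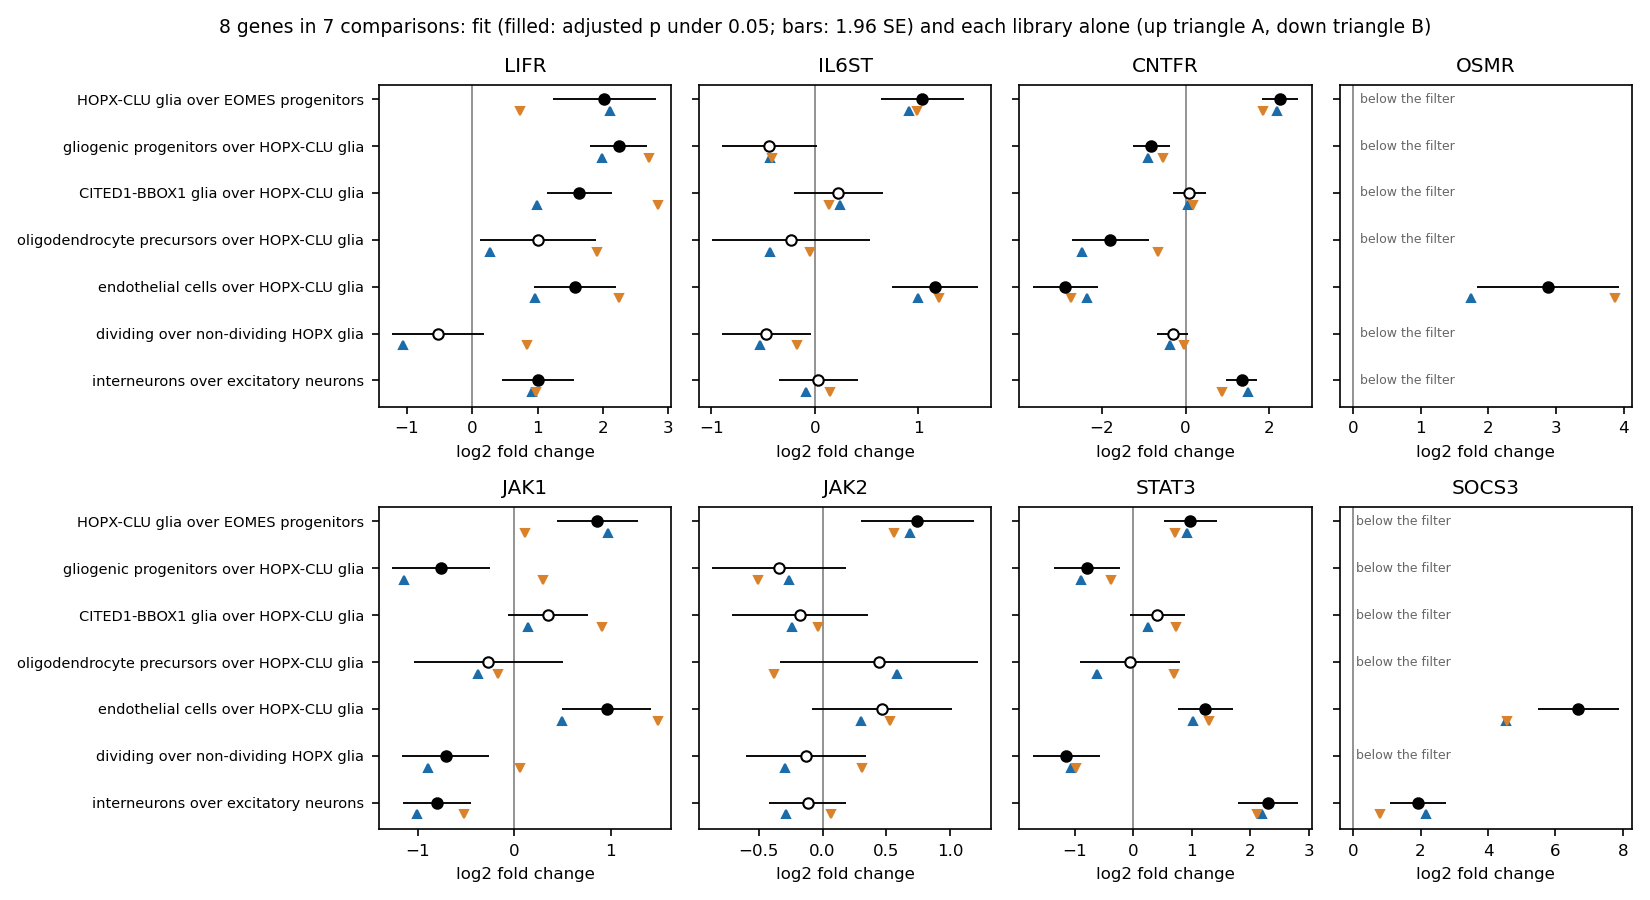
Log2 fold changes of the 8 genes in the 7 comparisons (filled circle for an edgeR adjusted p under 0.05, bars for an approximate 95% interval from the SE), with each library alone as an upward (A) or downward (B) triangle. LIFR in gliogenic progenitors over HOPX-CLU glia (2.24) and STAT3 in interneurons over excitatory neurons (2.31) have both triangles on the side of the circle, whereas JAK1 in gliogenic progenitors (-0.76) has library B at 0.30; LIFR in CITED1-BBOX1 glia is shown as a description.

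LIF itself and several other ligands of these receptors were scarce in the sampled cells, whereas IL11, CNTF and CTF1 were detected. LIF held 4 UMIs, OSM 3 and CLCF1 7 in the whole data set, and IL6 held none. IL11 held 703 UMIs and CTF1 held 213. The summed ligand level was 31.5 and 30.2 CPM in excitatory neurons and 17.3 and 14.6 CPM in gliogenic progenitors. CNTF held 504 UMIs, at 12.6 and 7.28 CPM in gliogenic progenitors and 8.02 and 14.8 CPM in endothelial cells, against 4.79 and 3.92 CPM in HOPX-CLU glia. Of 9 listed ligands 3 were tested in interneurons over excitatory neurons (CNTF, IL11 and CTF1), with edgeR's adjusted p from 0.226 to 0.411. In HOPX-CLU glia over EOMES progenitors 1 was tested, IL11, lower at a mean of 3.78 CPM in HOPX-CLU glia, against 14.7 CPM in EOMES progenitors (log2 -1.60, SE 0.52, edgeR's adjusted p = 0.0118).

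IL11RA, the interleukin-11 chain that also uses gp130, was high in HOPX-CLU glia, as CNTFR was. It stood at 44.7 and 47.0 CPM in HOPX-CLU glia and 8.02 and 9.81 CPM in EOMES progenitors, a log2 difference of 2.37 (SE 0.30, edgeR's adjusted p = 1.92e-07). Gliogenic progenitors held 7.32 and 3.64 CPM, lower than HOPX-CLU glia by -2.85 (SE 0.38, edgeR's adjusted p = 7.02e-10). Both gp130 partner genes that were high in HOPX-CLU glia were thus lower in gliogenic progenitors, where LIFR was higher. For CNTFR that call was lost with DESeq2 and after thinning. The leptin receptor gene LEPR went the other way against EOMES progenitors, at 7.99 and 9.80 CPM in HOPX-CLU glia and 23.4 and 18.0 CPM in EOMES progenitors (log2 -1.36, SE 0.38, edgeR's adjusted p = 0.00439).

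Feedback genes other than SOCS3 showed another order. SOCS1, which blocks JAK kinases, held 17.6 and 31.4 CPM in HOPX-CLU glia and 2.89 and 2.45 CPM in EOMES progenitors (log2 2.91, SE 0.47, edgeR's adjusted p = 1.06e-05). In endothelial cells SOCS1 held 2.67 and 4.57 CPM, lower than HOPX-CLU glia by -2.70 (SE 0.59, edgeR's adjusted p = 0.000331), so SOCS1 and SOCS3 differed in direction between these classes. Of 12 feedback genes tested there, 3 were higher (PIAS1, PTPN1 and PTPN11) and SOCS1 lower, in a comparison where 46.6% of all genes were called. SOCS5 was the largest feedback difference between neuron types, at 42.8 and 40.8 CPM in interneurons and 5.47 and 7.68 CPM in excitatory neurons (log2 2.66, SE 0.21, edgeR's adjusted p = 1.48e-06), among 14 tested with 3 higher and 1 lower. Of all genes tested between neuron types 13.7% were called higher and 12.9% lower.

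STAT5B, a transcription factor used by other cytokine receptors, was higher in endothelial cells, at 26.7 and 32.0 CPM against 10.4 and 5.88 CPM in HOPX-CLU glia (log2 1.76, SE 0.46, edgeR's adjusted p = 0.00191).

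The listed STAT3 target genes did not move as a block. In endothelial cells over HOPX-CLU glia 5 of 12 tested targets were higher and 3 lower, with a median log2 difference of 0.26 against 0.04 over all genes tested, which the fitted value of TIMP1 does not move. Of all genes tested there 24.9% were called higher and 21.7% lower. CEBPD, a transcription factor of the acute response, held 128 and 69.6 CPM in endothelial cells, against 1.60 and 9.80 CPM in HOPX-CLU glia (log2 4.65, SE 0.45, edgeR's adjusted p = 2.53e-10). TIMP1, a metalloproteinase inhibitor, held 61.5 and 47.9 CPM in endothelial cells and no UMI in HOPX-CLU glia. BCL6, S100B and KLF6 were the lower ones, S100B by -3.07 (SE 0.29, edgeR's adjusted p = 1.81e-10).

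In HOPX-CLU glia over EOMES progenitors 6 of 10 tested targets were higher (BCL6, MCL1, MYC, VEGFA, S100B and KLF6) and 2 lower (CCND1 and HIF1A), with a median of 1.0 against -0.03 over all genes tested. S100B and KLF6 are also glial or early response genes. Of the 10 tested immediate early and dissociation genes 7 were higher in the same comparison, with a median of 2.04. Over all genes tested in it, 25.6% were called higher and 24.0% lower. In gliogenic progenitors over HOPX-CLU glia 3 of 12 targets were higher, CEBPD, CCND1 and GADD45B, and 3 lower, BCL6, S100B and KLF6. The split gave a median of -0.08 against 0.02 over all genes tested. Among all those genes 17.6% were called higher and 18.1% lower, so these counts of targets lie near the background.

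CEBPD and GADD45B, a stress-inducible growth arrest gene, were the 2 targets of 11 tested that were higher in CITED1-BBOX1 glia than in HOPX-CLU glia. Both were known from earlier results on glia with high LIFR, so their values are a description. CEBPD held 30.3 and 47.1 CPM in CITED1-BBOX1 glia and 1.60 and 9.80 CPM in HOPX-CLU glia. GADD45B held 47.3 and 32.8 CPM in CITED1-BBOX1 glia and 5.59 and 7.84 CPM in HOPX-CLU glia. JUNB was known in the same way, and it held 119 and 164 CPM in CITED1-BBOX1 glia, against 44.7 and 41.2 CPM in HOPX-CLU glia. With JUNB counted, 6 of 10 tested immediate early and dissociation genes were higher, also as a description. Of all genes tested in CITED1-BBOX1 glia over HOPX-CLU glia 1.29% were called higher. The part of dissociation in these levels was not tested.

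The location of the UMIs over classes differed between members. Gliogenic progenitors and CITED1-BBOX1 glia together held the largest gated share of LIFR, endothelial cells that of SOCS3 and OSMR, and all excitatory neurons, deep-layer ones included, that of JAK1 (27.98%) and JAK2 (29.8%), as the most numerous class. STAT3 had 5.72% of its UMIs in those neurons, which were 34.9% and 30.3% of the kept cells. Cells that met no gate held between 14.9% (SOCS3) and 34.0% (CNTFR) of a member's UMIs.

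**Figure D5:**
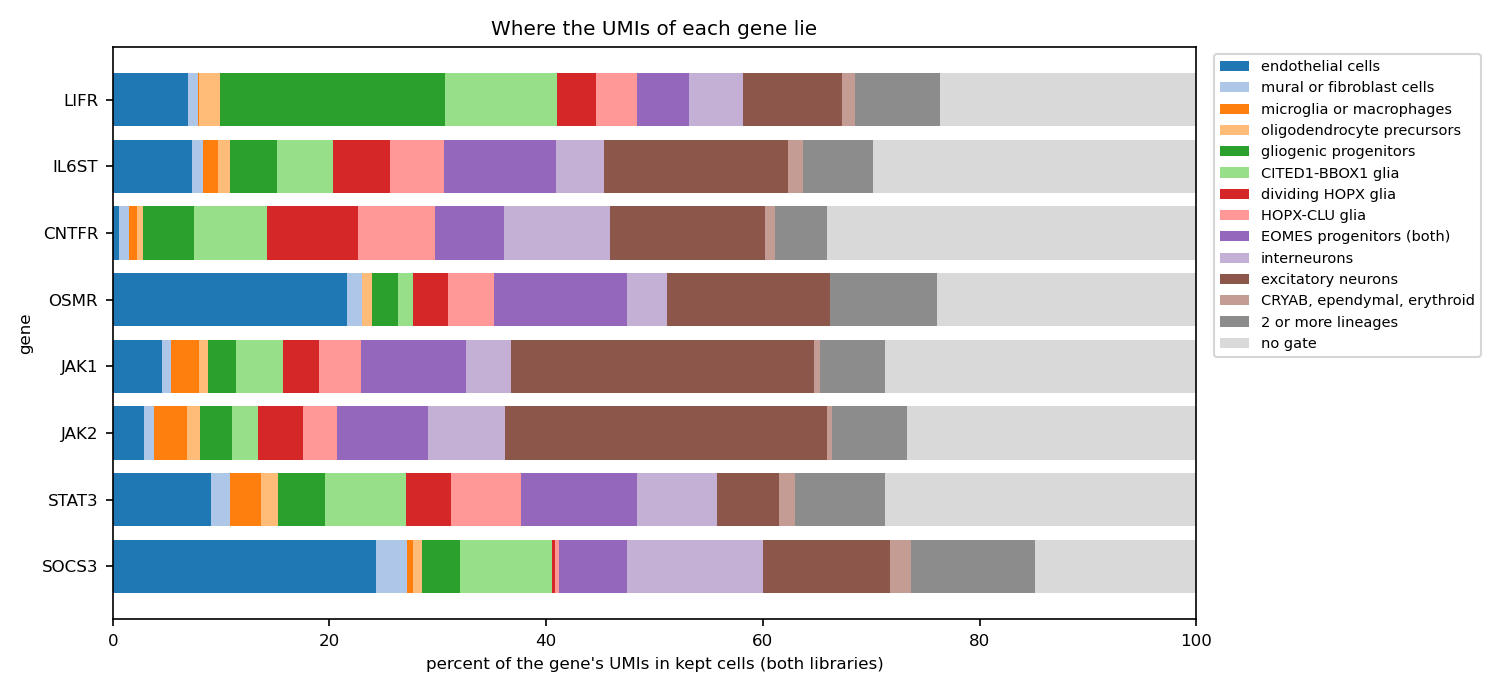
Percent of each gene's UMIs in kept cells of both libraries that lie in each class, in cells of 2 or more lineages and in cells with no gate. LIFR has 20.8% in gliogenic progenitors, SOCS3 has 24.3% in endothelial cells, and JAK2 has 29.8% in excitatory neurons.

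Genes whose levels over the 16 classes were most like those of each member were found among 10961 genes by Pearson's r of log2(CPM + 10), as a description in which the classes share 2 libraries and their depth. For LIFR these were HAPLN3 (r = 0.87), SIK3 (0.86) and ADAMTS1 (0.85). CNTFR was most like TTYH1 (0.92), SOX9 (0.92) and PARM1 (0.91). OSMR was most like ADGRL4 (0.95), ATP8B1 (0.95) and FZD4 (0.94), all highest in endothelial cells. STAT3 was most like CALR (0.91), PDIA4 (0.91) and OPTN (0.89), and SOCS3 was most like NKD1 (0.91). IL6ST was most like TACC1 (0.96), JAK1 most like SERINC3 (0.90) and JAK2 most like HACD1 (0.85).

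Detection of 2 members in the same cell was sparse. After thinning, IL6ST was found in 4 of 27 gliogenic progenitors with a LIFR UMI and in 9 of 232 without one in library A, and in 1 of 11 and 2 of 94 in library B. The exact intervals were 4.19% to 33.7% with LIFR and 1.79% to 7.24% without it in library A, and 0.230% to 41.3% and 0.259% to 7.48% in library B. The direction was not the same in every class. In library A it was 3 of 11 HOPX-CLU glia with LIFR and 14 of 218 without, but 1 of 16 CITED1-BBOX1 glia with LIFR and 14 of 159 without. In library B 3 of 28 endothelial cells with LIFR and 39 of 319 without it held an IL6ST UMI. These shares rest on few cells and were not tested against each other.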

How the data were processed

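The authors deposited a single matrix that holds UMI counts of genes by cells. The submitters' processing notes name Cell Ranger. Its version, the genome build and any earlier filter were not given in the sources used here. Barcode suffixes split the cells into libraries A and B; the labels do not say which replicate each is.

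A cell was kept with 500 genes or more and no more than 10% mitochondrial UMIs (14 removed). Scrublet's automatic threshold called 0 doublets in either library, so its calls were of no use. Cells in the gates of 2 lineages were left out instead, which misses doublets within a lineage. An alternative setting left out the 504 cells with a Scrublet score above 0.2. The erythroid class, planned as a gauge of free RNA, held 14 cells and was not used so.

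UMIs were summed per class and library, with at least 20 cells in each sum, and cells were never replicates. The 4 sums of each comparison went into edgeR 4.0.16 under R 4.3.3 (TMM, filterByExpr, quasi-likelihood, library as a block because both classes come from the same libraries). This leaves 1 residual degree of freedom, so error estimates lean on spread shared across genes. Gate genes were not tested. Called means a Benjamini-Hochberg adjusted p under 0.05 over all genes tested. The fit was tested on simulated data with the same dispersion for all genes and class differences equal in both libraries. Only genes with ample counts were changed there. That setting is simpler than these data and does not show how well changes are found at low counts. Python 3.11.15, numpy 2.4.6, scipy 1.17.1 and scanpy 1.11.5 were used for the rest. DESeq2 1.42.0 and other settings were alternatives. CPM intervals are Poisson and shares exact binomial (95%). Intervals of a log2 difference are approximate, taken from the SE with a normal distribution, and can be narrower than the error used by the test.

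The members, gates and gene lists were chosen with earlier results of these data known. Named genes are the 8 members, listed pathway genes that were called, and the 3 genes most like each member in level over classes, of which some are given. A listed item is not reported here.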

Additional observations from a re-analysis of the deposited data

How the results depend on the processing

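The calls depended most on the test and on depth per cell. DESeq2 called 2294 genes in HOPX-CLU glia over EOMES progenitors (5079 by edgeR), 980 in gliogenic progenitors over HOPX-CLU glia (3429), 9 in CITED1-BBOX1 glia (157), 604 in oligodendrocyte precursors (2099), 2115 in endothelial cells (4290), 558 in dividing over non-dividing HOPX glia (2688) and 1368 in interneurons over excitatory neurons (3395). In the same order, without endothelial cells, its member counts were 1 (6), 1 (4), 0 (1), 0 (1), 0 (2) and 2 (5); in CITED1-BBOX1 glia the 1 is LIFR, a description, and DESeq2 gave the members no adjusted p. With cells thinned to 1500 UMIs the gene counts were 2866, 1444, 18, 857, 2242 and 904 in the first 6 comparisons, and members called were 3 and 1 in the first 2 and 0 in dividing HOPX glia. The 0 in oligodendrocyte precursors is no lost call, since no member passed the filter there. LIFR in HOPX-CLU glia over EOMES progenitors had no test after thinning either, nor had STAT3 in gliogenic progenitors or dividing HOPX glia. In CITED1-BBOX1 glia the count was 77 with no library block and 44 in 1 fit over 12 classes. Members called there were 2 with no filter and 2 in that fit, LIFR and SOCS3. Without the block no member call changed in any comparison, for example 6 members in HOPX-CLU glia over EOMES progenitors.

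Some signs turned, among them those of 2 called JAK1 differences. JAK1 ran between -1.14 and 0.30 over single libraries in gliogenic progenitors and between -0.90 and 0.0533 in dividing HOPX glia. Single libraries also had opposite signs, among others, for LIFR in dividing HOPX glia (-1.06 and 0.84), and in oligodendrocyte precursors for STAT3 (-0.63 and 0.69) and JAK2 (0.58 and -0.38), none of them called. JAK2 was 0.0405 in CITED1-BBOX1 glia and 0.12 in dividing HOPX glia with stricter gates. STAT3 in oligodendrocyte precursors was 0.12 with DESeq2 and 0.0393 with library totals. IL6ST was 0.20 in thinned dividing HOPX glia, and in interneurons -0.0066 with no filter, -0.0005 in 1 fit, -0.18 thinned and -0.019 without cells holding an endothelial marker, a setting chosen after seeing the data. The causes were not tested. For oligodendrocyte precursors the stricter gate and the last setting left too few cells to be fitted, and a single library gives values with no test.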
